A study of Rattus norvegicus with 28 samples.

Results

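Mitochondrial ribosomal protein (MRP) genes, the nuclear genes for the proteins of the ribosome inside mitochondria, were followed in INS-1, an insulin-producing cell line derived from a rat insulinoma. Members were the genes whose symbol starts with Mrpl (named for the large subunit) or Mrps (named for the small subunit) and a number. Each was represented by its most abundant transcript, with a mean of at least 1 TPM (transcripts per 1e6, a level per transcript length) over all libraries. Of 71 such genes 68 passed, 40 with an Mrpl and 28 with an Mrps symbol, among 10275 genes tested. A symbol alone does not place a protein in a subunit, and RefSeq lists Mrps36 as Kgd4, a subunit of another complex. Mrpl30, Mrpl53 and Mrpl36 had means of 0.0513 TPM or less and were left out, whereas the least abundant member, Mrpl1, had a mean of 5.02 TPM.

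Bulk RNA-seq had been performed on WT cells and on Med14 S983A cells, which carry a serine-to-alanine substitution, introduced in the genome, in Med14, the scaffold subunit of the Mediator complex. Each genotype was untreated (CON) or exposed for 1, 8 or 16 h to 10 nM exendin-4 (Ex-4), a GLP-1 receptor agonist, or to FSK (forskolin, 10 µM), a direct activator of adenylyl cyclase that raises cAMP, giving 14 groups of 2 libraries. Cells of every group were kept in medium without serum before treatment. The mutant lines were clones grown from single sorted cells, and the study's methods state that its experiments used a pair of lines made independently and that the RNA-seq replicates were biological. The labels do not tie a library to a line or a culture, so p-values measure only the spread between these libraries. The comparisons ask how gene expression responded to each stimulus and whether the response differed with the Med14 residue.

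Mitochondrial ribosomes translate the few proteins that the mitochondrial genome encodes, all of them subunits of the respiratory chain and ATP synthase. Their RNAs are made inside the organelle, but every ribosomal protein is encoded in the nucleus, made in the cytosol and imported. In beta cells respiration couples glucose metabolism to insulin release, and the factors NRF1, GABP (an ETS factor) and YY1 and the PGC-1 coactivators are known regulators of nuclear genes for mitochondrial proteins.

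Fragments per library numbered 42183630 to 56755944, with 91794163 in the second replicate of the Med14 S983A group at 8 h of FSK. Med14 itself lay between 18.4 and 28.6 TPM in the group means, which cannot show a substitution. All 9 beta cell markers in the table had a mean above 1 TPM, with a summed level per library of 45600 to 84800 TPM (45600 and 46400 TPM in WT CON, 79800 and 82500 TPM in WT at 8 h of FSK, 51300 and 52100 TPM in Med14 S983A at 16 h of FSK). Of 7 markers of other islet cells only Gcg passed 1 TPM, and their sum ran from 6.13 TPM in Med14 S983A CON to 1340 TPM in WT at 8 h of FSK. Markers of exocrine and duct cells summed to at most 3.34 TPM, and those of endothelial cells, fibroblasts and blood to at most 4.5 TPM. The part of these shifts in the MRP results was not tested.

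The MRP genes differed widely in level on the TPM scale, which is per transcript length. Mrpl17, a protein near the exit tunnel of the large subunit, had the highest mean at 264 TPM, followed by Mrpl23, also near the tunnel, at 233, Mrpl49 at 206, Mrps21 at 184 and Mrps18a at 168 TPM. Lowest were Mrpl1, a stalk protein, at 5.02 TPM, Mrpl40 at 8.58, Mrps35 at 16.4, Mrps28 at 22.7 and Mrps22 at 26.5 TPM. Mrpl1 did not exceed 7.31 TPM and Mrpl17 was at least 195 TPM in every library. The ranges of Mrpl17 (195 to 423 TPM) and Mrpl23 (120 to 285 TPM) overlapped.

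Promoter windows, from 250 bases before to 50 after the start in RefSeq (GRCr8), were found for 54 of the 68 genes and searched on both strands. GCGCANGCG, a motif of NRF1, was in 11 windows (20.4%, against 14.2% of the 8202 tested genes with a window and 6.26% of the 27457 gene symbols with a window). CCGGAAG, an ETS motif that GABP binds, was in 17 (31.5%, against 18.8% and 9.22%). AAGATGGCG, a YY1 motif, was in 8 (14.8%, against 4.16% and 1.93%). At least 1 of these 3 was in 30 windows (55.6%, against 32.2% of tested genes).

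The full cAMP response element (CRE) that CREB binds, TGACGTCA, was in 1 window, that of Mrpl55 (1.85%, against 3.35% of tested genes and 1.91% of all symbols). TGACGT, a shorter CRE motif that every full CRE contains, was in 6 (11.1%, against 12.2% and 8.22%), and the E-box CACGTG in 4 (7.41%, against 9.61% and 6.65%). A match describes letters and is not a measured binding site.

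The windows of 4 genes that were low at 8 h of FSK (Mrpl34, Mrpl2, Mrps23 and Mrpl55) and of 2 that were high at 16 h of FSK in Med14 S983A (Mrpl17 and Mrps10) are shown 5′ to 3′ on the strand of the gene. They are examples that hold a motif, taken from the members described below. The windows of Mrps33, Mrpl47 and Mrpl12, which also had large differences, held none of these motifs. Capitals mark the motifs above. In GRCr8 the windows are Mrpl34 at chr16:18186197-18186496 (plus strand), Mrpl2 at chr9:21834558-21834857 (minus strand), Mrps23 at chr10:73495988-73496287 (plus strand), Mrpl55 at chr10:44488003-44488302 (plus strand), Mrpl17 at chr1:169575650-169575949 (minus strand), Mrps10 at chr9:21122404-21122703 (minus strand). Mrpl34 has an NRF1 motif, Mrpl2 and Mrps23 have the shorter CRE motif, Mrpl55 has the full CRE, Mrpl17 has NRF1 motifs and the shorter CRE motif, and Mrps10 has an ETS and a YY1 motif.
Mrpl34: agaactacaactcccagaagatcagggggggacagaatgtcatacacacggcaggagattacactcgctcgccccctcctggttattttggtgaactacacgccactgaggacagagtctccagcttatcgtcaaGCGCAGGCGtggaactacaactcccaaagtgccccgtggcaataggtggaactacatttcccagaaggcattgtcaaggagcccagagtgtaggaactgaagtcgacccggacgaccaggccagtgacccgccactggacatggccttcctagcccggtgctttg
Mrpl2: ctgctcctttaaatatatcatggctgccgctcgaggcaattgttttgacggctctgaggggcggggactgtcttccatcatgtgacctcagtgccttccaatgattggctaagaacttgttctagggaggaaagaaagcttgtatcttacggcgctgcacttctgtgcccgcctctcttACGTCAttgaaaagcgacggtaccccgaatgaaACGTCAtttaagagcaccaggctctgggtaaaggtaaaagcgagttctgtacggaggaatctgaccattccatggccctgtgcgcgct
Mrps23: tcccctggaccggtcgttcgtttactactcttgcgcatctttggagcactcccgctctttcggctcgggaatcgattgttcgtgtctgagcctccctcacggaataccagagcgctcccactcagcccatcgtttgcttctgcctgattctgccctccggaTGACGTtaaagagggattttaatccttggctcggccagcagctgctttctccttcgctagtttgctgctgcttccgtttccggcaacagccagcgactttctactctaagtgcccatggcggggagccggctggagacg
Mrpl55: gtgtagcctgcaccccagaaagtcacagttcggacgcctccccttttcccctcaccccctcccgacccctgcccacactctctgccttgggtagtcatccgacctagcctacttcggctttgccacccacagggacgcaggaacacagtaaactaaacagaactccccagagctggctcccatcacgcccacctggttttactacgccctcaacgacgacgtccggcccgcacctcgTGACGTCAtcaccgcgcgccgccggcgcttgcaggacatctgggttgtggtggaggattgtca
Mrpl17: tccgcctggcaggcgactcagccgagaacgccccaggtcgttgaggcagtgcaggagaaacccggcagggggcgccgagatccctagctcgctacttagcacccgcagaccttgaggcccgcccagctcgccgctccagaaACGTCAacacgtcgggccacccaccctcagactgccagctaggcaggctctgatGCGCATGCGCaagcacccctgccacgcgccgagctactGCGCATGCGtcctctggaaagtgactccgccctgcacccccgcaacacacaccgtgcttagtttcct
Mrps10: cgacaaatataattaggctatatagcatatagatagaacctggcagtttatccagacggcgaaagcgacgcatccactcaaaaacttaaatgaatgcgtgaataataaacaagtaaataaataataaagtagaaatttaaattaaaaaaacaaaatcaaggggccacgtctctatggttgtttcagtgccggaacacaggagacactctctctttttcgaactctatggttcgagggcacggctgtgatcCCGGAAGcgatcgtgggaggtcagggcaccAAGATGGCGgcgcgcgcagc

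Summed over the 68 genes, MRP transcripts made up 0.633% of all TPM in untreated WT cells and 0.629% in untreated Med14 S983A cells. The sum was 6263 and 6407 TPM in untreated WT, and 6254 and 6329 TPM in Med14 S983A CON. After 8 h of FSK it was 5189 and 5002 TPM in WT (80.4% of the CON mean) and 4878 and 4899 TPM in Med14 S983A (77.7%). The 4 libraries at 8 h of FSK thus had the lowest sums of all on the TPM scale. After 16 h of FSK it was 92.1% of CON in WT and 108% in Med14 S983A, whose libraries (6808 and 6771 TPM) had the highest sums. On the scale of the ERCC spike-ins, synthetic RNAs added to total RNA, these values were 81.4% and 73% at 8 h and 121% and 128% at 16 h. For WT at 16 h of FSK the direction therefore depended on the scale. The same held for WT after Ex-4, at 98% of CON at 8 h and 94% at 16 h in TPM, but 109% and 118% with ERCC scaling.

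**Figure D1:**
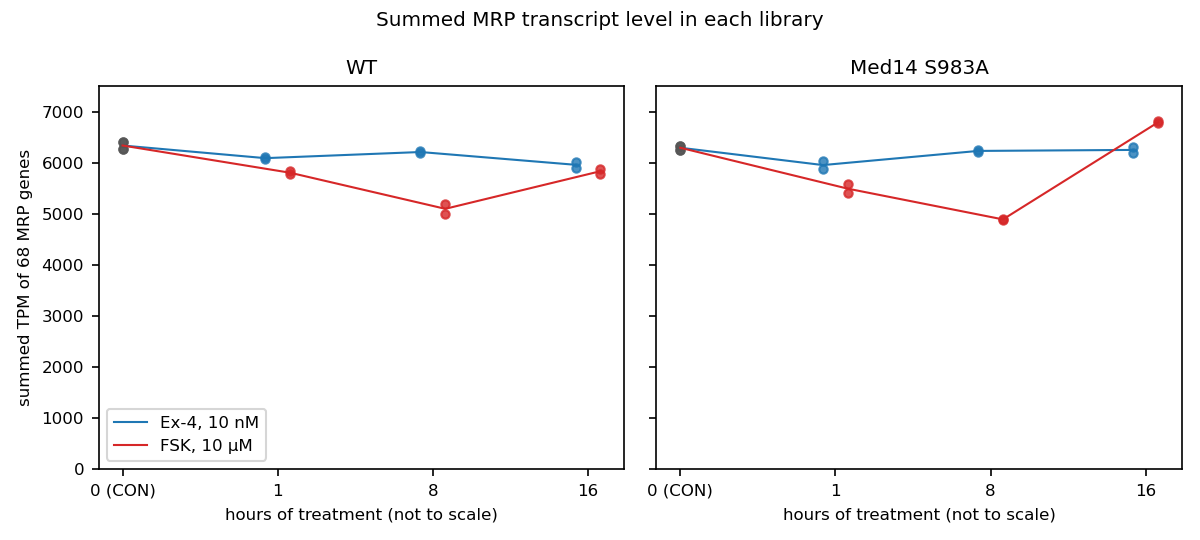
Summed TPM of the 68 MRP genes (vertical axis) in each library against hours of treatment (horizontal axis), with WT and Med14 S983A side by side, points for single libraries and lines through group means. The lowest points are the libraries at 8 h of FSK (4878 to 5189 TPM) and the highest are those of Med14 S983A at 16 h of FSK.

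Differences were tested with limma on log2(TPM + 1) over all libraries, with p-values adjusted over all genes tested. Genes with a fold above 1.5 and an adjusted p below 0.05 were called, and the background given beside a count is the share of all genes tested that were called. Differences are on the log2(TPM + 1) scale, which understates changes of low genes. Groups of 2 libraries often did not overlap even where a difference was small, so a statement that groups were apart adds little. Key results are also given after ERCC scaling and after centring each library on its median gene. Every background is that of the main fit on TPM. Shares of all genes on the other scales, by edgeR or DESeq2, or at an unadjusted p are not given, so those counts have no background. ERCC sequences took 0.908% of fragments in WT CON and 0.714% in WT at 16 h of FSK, and 0.827% and 0.693% in Med14 S983A. In bulk RNA, fewer cells of a type and less RNA per cell cannot be told apart.

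Over the 12 comparisons of a treatment with CON, 26 of the 68 genes (38.2%) were called at least once and 42 in none. Of all genes tested, 68.5% were called at least once.

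No MRP gene was called after Ex-4 in WT. The counts were 0 of 68 at 1 h (background 2.87%), 0 at 8 h (background 9.6%) and 0 at 16 h (background 11.8%). At an unadjusted p under 0.05, for which no share of all genes is given, limma gave 20, 32 and 39 members. EdgeR called 0 at each time. DESeq2, run here and below with ERCC size factors, called 0, 0 and 1. At 16 h 32 members were lower past the adjusted p alone (background 52.4%), with a median of -0.10 against -0.16 for all genes, but the MRP median was 0.23 with ERCC scaling and 0.09 after centring. The lowest differences at 16 h were those of Mrps26 at -0.38 (SE 0.05), Mrpl14 at -0.37 and Mrpl50 at -0.32. The highest were Mrps10 at 0.28 (SE 0.05), Mrpl17 at 0.20 and Mrpl58, a peptidyl-tRNA hydrolase related to release factors, at 0.14.

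In Med14 S983A, Ex-4 gave 0 calls at 1 h (background 3.04%), 0 at 8 h (background 6.3%) and 1 at 16 h (background 11.9%). At an unadjusted p under 0.05 limma gave 31 and 34 members at 1 and 8 h, and edgeR and DESeq2 called 0 at both. Mrpl14, which lies on the face between the subunits, was the gene that fell at 16 h. It was 121 and 130 TPM in CON and 78.7 and 73.6 TPM after 16 h, a difference of -0.71 (SE 0.05, adjusted p = 2.71e-12), and the groups did not overlap. In WT it was 154 and 157 TPM in CON and 123 and 119 TPM after 16 h, where it was not called. Past the adjusted p alone 20 members were lower (background 37.3%) and 15 higher (background 24.6%).

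**Figure D2:**
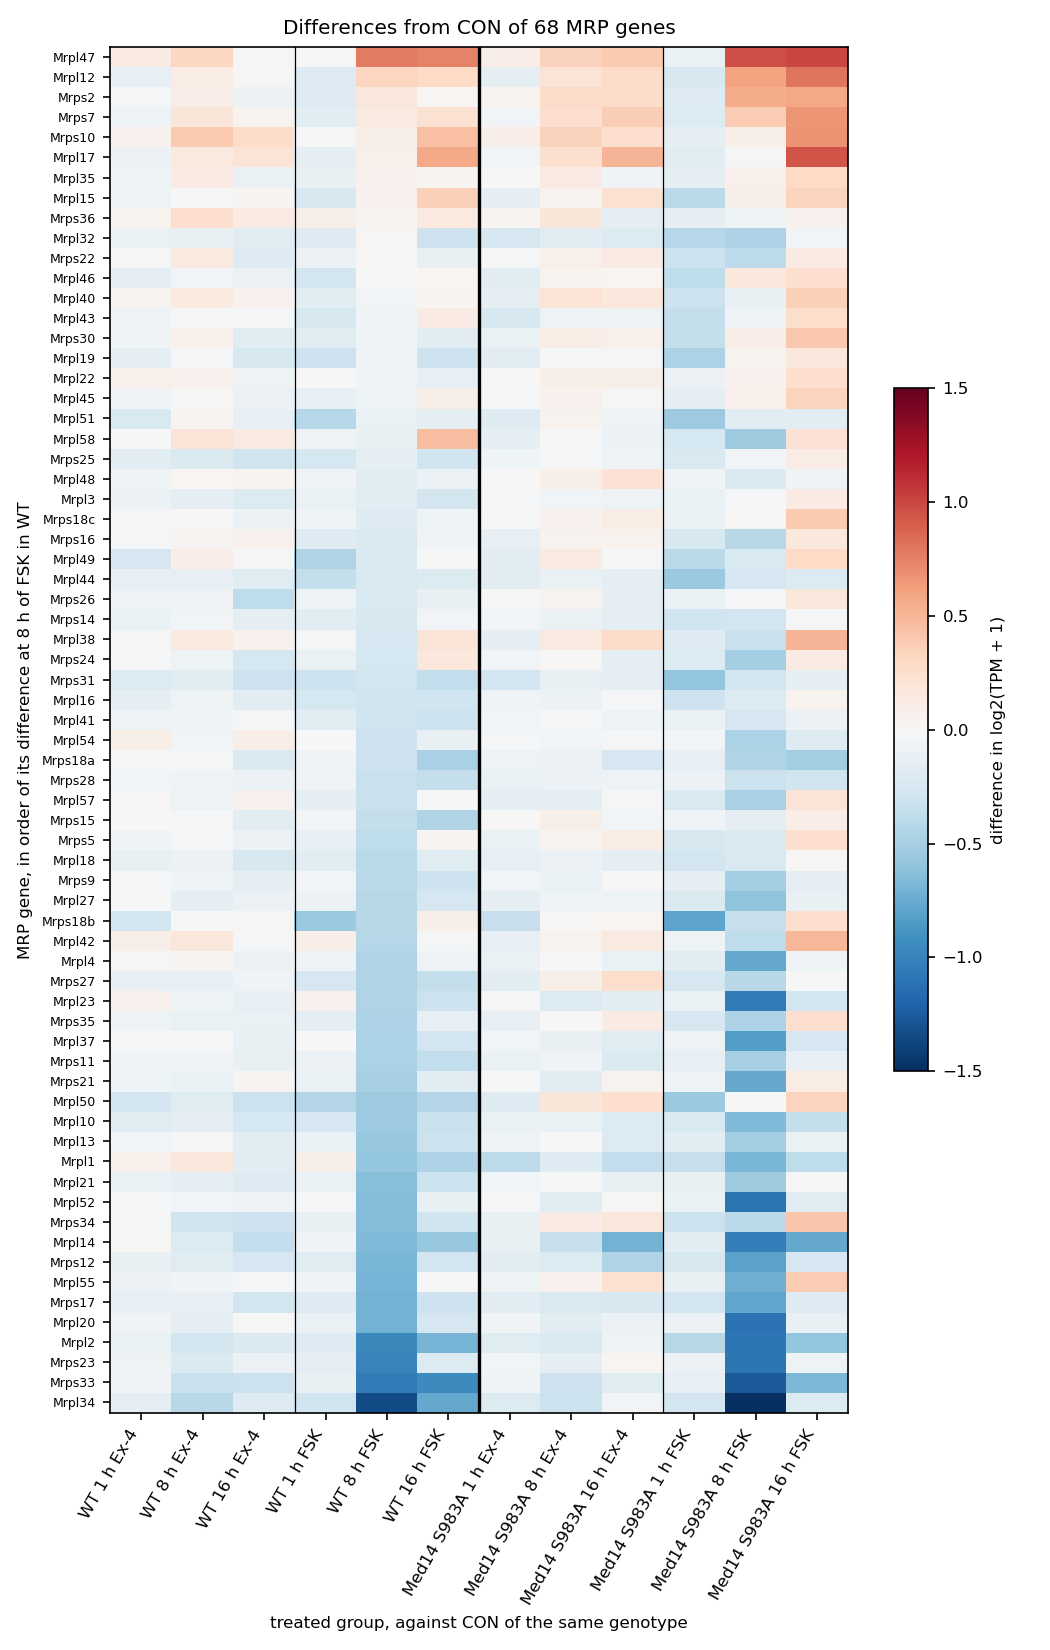
Difference in log2(TPM + 1) from CON of the same genotype for each of the 68 MRP genes in the 12 treated groups, with blue for lower, white for no difference and red for higher. At 8 h of FSK the values run from -1.34 to 0.76 in WT and from -1.51 to 0.97 in Med14 S983A, and the Ex-4 groups are paler.

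After 1 h of FSK in WT 0 MRP genes were called (background 7.47%), with 38 at an unadjusted p under 0.05 by limma and 0 called by edgeR and DESeq2. In Med14 S983A 2 fell and 0 rose (background 10.4% in either direction). Mrps18b, of the small subunit, was 120 and 125 TPM in CON and 70.4 and 69.7 TPM after 1 h, a difference of -0.79 (SE 0.04, adjusted p = 5.47e-14). Mrps31, without a bacterial counterpart, was 34.3 and 32.0 TPM and then 22.1 and 21.3 TPM, a difference of -0.59 (SE 0.06, adjusted p = 3.93e-09). Both were apart from CON. Mrps18b in WT was 114 and 112 TPM in CON and 76.1 and 76.5 TPM after 1 h (-0.56, inside the fold minimum).

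Past the adjusted p alone 51 members were lower at 1 h of FSK in Med14 S983A (background 43.4%). Their median over the 68 genes was -0.20 against -0.11 for all genes, -0.41 with ERCC scaling and -0.05 after centring. The count of 2 calls was 1 without replicate 1 of CON, 4 without replicate 1 and 1 without replicate 2 of the treated group.

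After 8 h of FSK in WT 12 MRP genes fell and 1 rose. The background was 34.8% lower and 8.77% higher, so the share of MRP genes called was below that of all genes in both directions. The MRP median was -0.31 and that of all genes -0.34. With ERCC scaling 12 were lower and 1 higher, but after centring 3 were lower and 2 higher and the MRP median was 0.08. EdgeR on recovered fragments called 4 lower and 2 higher.

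Mrpl34, a small protein of the large subunit, had the lowest difference. It was 101 and 103 TPM in WT CON and 41.0 and 38.8 TPM after 8 h of FSK, a difference of -1.34 (SE 0.06, adjusted p = 1.49e-16). In Med14 S983A it was 98.8 and 101 TPM and then 32.8 and 36.2 TPM, a difference of -1.51 (SE 0.06, adjusted p = 1.03e-17). Treated and untreated libraries did not overlap in either genotype.

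Mrps33 and Mrps23 are small-subunit proteins without a bacterial counterpart, and both fell in both genotypes. Mrps33 was 159 and 167 TPM and then 80.9 and 76.1 TPM in WT (-1.05, SE 0.05), and 201 and 204 TPM and then 81.1 and 86.2 TPM in Med14 S983A (-1.27, SE 0.05). Mrps23, whose window above holds the shorter CRE motif, was 96.0 and 103 TPM and then 51.9 and 47.9 TPM in WT (-0.98, SE 0.05), and 108 and 106 TPM and then 47.4 and 52.6 TPM in Med14 S983A (-1.08, SE 0.05). Mrpl2, close to the peptidyl transferase centre, was 55.0 and 50.6 TPM and then 27.3 and 25.9 TPM in WT (-0.96, SE 0.06), a call lost after centring (-0.57). The other 8 genes that fell in WT were Mrpl20, Mrps17, Mrpl55, Mrps12, Mrpl14, Mrps34, Mrpl52 and Mrpl21, at -0.71 to -0.64. Among them Mrps12, a protein of the decoding centre, was at -0.68 (SE 0.06). Mrps27, an RNA-binding protein of the pentatricopeptide repeat family, was at -0.45 (SE 0.05) and was not called.

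Mrpl47, near the exit tunnel, was the member that rose in WT. It was 30.1 and 29.5 TPM in CON and 51.6 and 50.8 TPM after 8 h of FSK, a difference of 0.76 (SE 0.05, adjusted p = 1.53e-12). In Med14 S983A it was 29.2 and 25.2 TPM and then 54.9 and 53.2 TPM (0.97, SE 0.05). Mrpl12 belongs to the stalk that recruits translation factors and also binds the mitochondrial RNA polymerase. It was 107 and 115 TPM and then 140 and 139 TPM in WT (0.33, SE 0.04, inside the fold minimum), and rose from 94.5 and 96.5 TPM to 144 and 148 TPM in Med14 S983A (0.60, SE 0.04), a call lost with ERCC scaling (0.51). Mrps2 was next in WT at 0.17 and was not called.

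In Med14 S983A 17 MRP genes fell (background 34.5%) and 2 rose (background 11.6%) after 8 h of FSK. The share called was again below that of all genes in both directions. The median was -0.34 for MRP genes and -0.28 for all genes. ERCC scaling gave 22 lower and 1 higher, and centring 8 lower and 4 higher with an MRP median of 0.00. Mrpl20, of the large subunit, fell from 182 and 175 TPM to 79.5 and 85.5 TPM (-1.11, SE 0.05). Mrpl52, a large-subunit protein without a bacterial counterpart, fell from 57.5 and 60.3 TPM to 27.6 and 26.4 TPM (-1.10, SE 0.05). Without the library of greatest depth, replicate 2 of this group, the count of 19 calls was 18.

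Of the 12 genes called lower in WT at 8 h of FSK, 10 were also called lower in Med14 S983A, which is 83.3% of the WT calls and 58.8% of the Med14 S983A calls. For all genes these shares were 79.6% and 80.3%. The genotypes share no library at this comparison. Across the 68 genes their differences had a Pearson r of 0.891 and a Spearman rho of 0.848, with 58 of the same sign, and r over all genes was 0.858. This is a description across genes, which are not independent replicates.

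**Figure D3:**
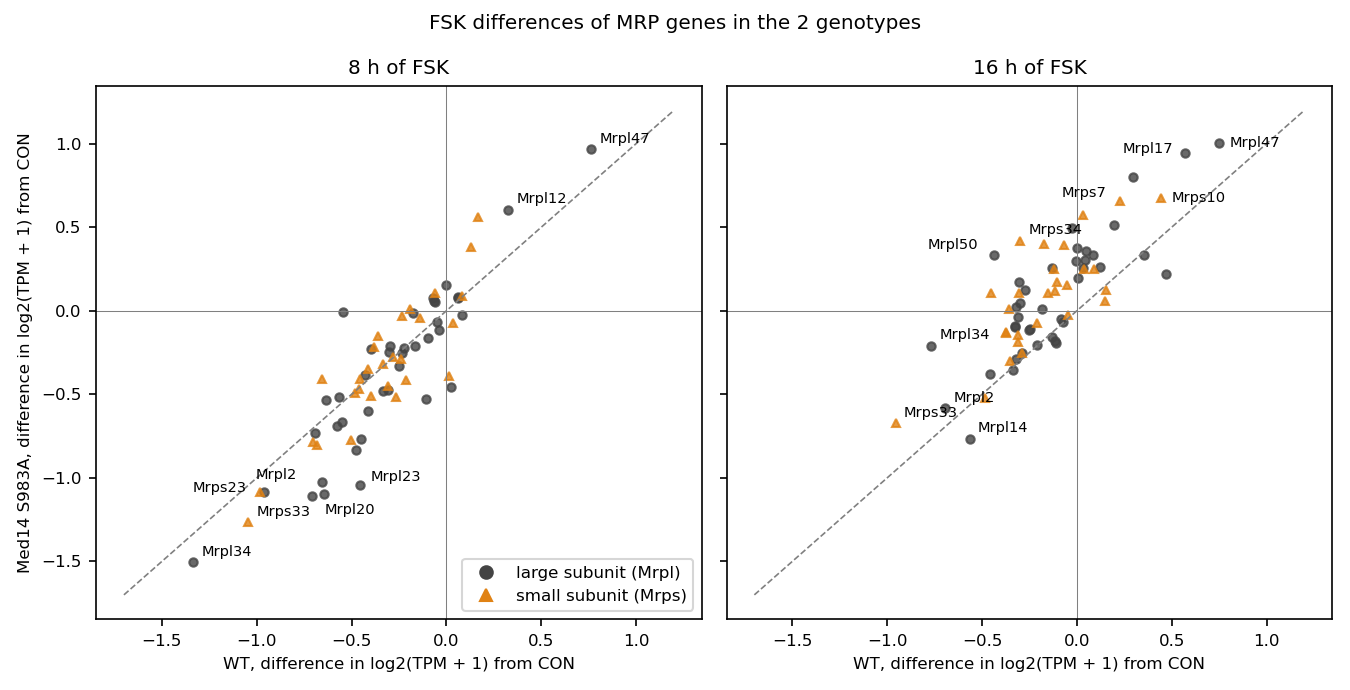
Difference in log2(TPM + 1) from CON after FSK in WT (horizontal axis) and Med14 S983A (vertical axis) at 8 h and at 16 h, with 1 point per MRP gene and a line of equal differences. At 8 h the points run from Mrpl34 (-1.34 and -1.51) to Mrpl47 (0.76 and 0.97), and at 16 h most lie above the line.

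At 16 h of FSK in WT 3 MRP genes were lower than in CON (background 24.1%) and 1 higher (background 10.3%). Mrps33 fell to 88.5 and 78.7 TPM (-0.96, SE 0.05), Mrpl34 to 62.7 and 56.8 TPM (-0.77, SE 0.06) and Mrpl2 to 34.2 and 30.4 TPM (-0.69, SE 0.06), calls that ERCC scaling did not keep (-0.56, -0.37 and -0.31). Mrpl47 rose to 50.8 and 50.6 TPM, a difference of 0.75 (SE 0.05, adjusted p = 2.89e-12). Mrpl17 and Mrpl58 were apart from CON but inside the fold minimum, at 359 and 363 TPM against 240 and 246 TPM (0.57) and at 96.7 and 94.9 TPM against 68.7 and 69.3 TPM (0.47). The MRP median was -0.14 (all genes -0.20), but 0.25 with ERCC scaling, where 8 were called higher and 0 lower, and 0.10 after centring.

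In Med14 S983A at 16 h of FSK 5 MRP genes rose (background 12.2%) and 2 fell (background 21.1%). Mrpl47 was 55.1 and 55.6 TPM against 29.2 and 25.2 TPM in CON, a difference of 1.00 (SE 0.05, adjusted p = 8.45e-15). Mrpl17 was 423 and 421 TPM against 217 and 221 TPM, a difference of 0.94 (SE 0.03, adjusted p = 3.28e-18). Mrpl12 was 169 and 166 TPM against 94.5 and 96.5 TPM, a difference of 0.80 (SE 0.04, adjusted p = 2.9e-16). Treated and untreated libraries of these 3 genes did not overlap.

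The small-subunit genes Mrps10 and Mrps7, whose products lie in the head of the subunit, also rose. Mrps10 went from 109 and 107 TPM to 179 and 167 TPM (0.68, SE 0.05) and Mrps7 from 114 and 125 TPM to 198 and 180 TPM (0.66, SE 0.05). Mrpl14 fell from 121 and 130 TPM to 75.7 and 71.0 TPM (-0.76, SE 0.05) and Mrps33 from 201 and 204 TPM to 128 and 125 TPM (-0.67, SE 0.05), calls lost with ERCC scaling. Past the adjusted p alone 33 members were higher (background 32.1%) and 20 lower (background 46.8%). The MRP median was 0.10 against -0.10 for all genes, 0.35 with ERCC scaling and 0.25 after centring.

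**Figure D4:**
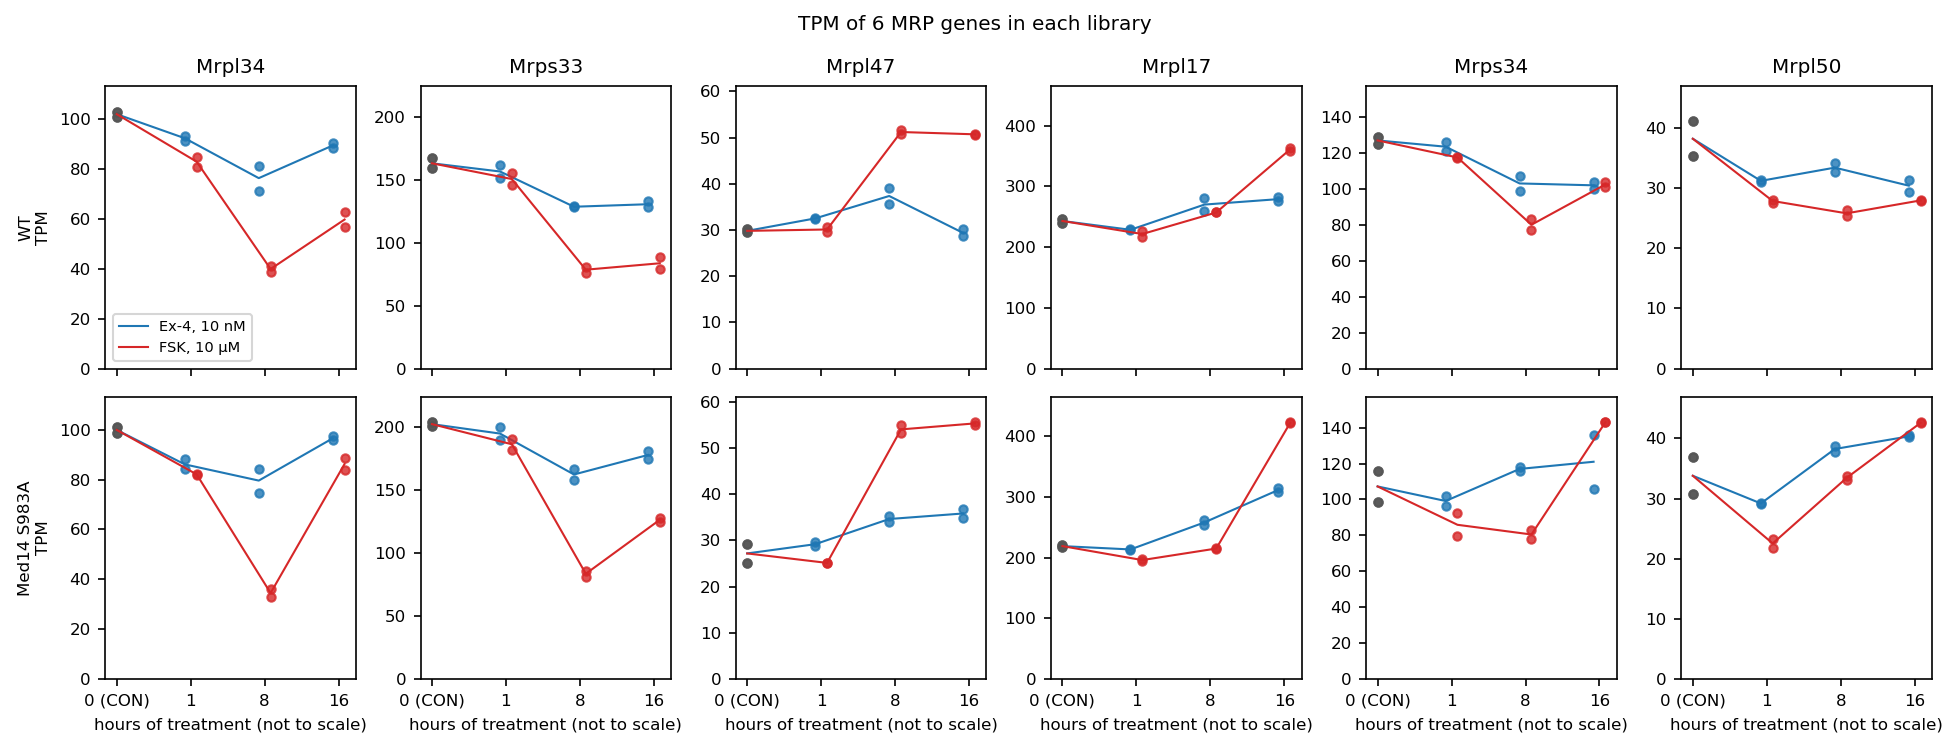
TPM of 6 MRP genes against hours of treatment in WT and Med14 S983A, with points for single libraries, lines through group means and colours for Ex-4 and FSK. Mrpl34 is lowest at 8 h of FSK in both genotypes. Mrps34 and Mrpl50 at 16 h of FSK are above CON in Med14 S983A and, on this TPM scale, below CON in WT. With ERCC scaling the WT differences are 0.10 for Mrps34 and -0.05 for Mrpl50, neither past the adjusted p.

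The step from 8 to 16 h of FSK was compared after the values had been seen. In Med14 S983A 20 MRP genes were called higher at 16 h than at 8 h (background 21.5%) and 0 lower, and 62 were higher past the adjusted p alone (background 50.7%). The MRP median was 0.38 against 0.15 for all genes. Mrpl34 went from 32.8 and 36.2 TPM to 84.0 and 88.5 TPM, a difference of 1.3 (SE 0.06, adjusted p = 8.25e-16). Mrpl55, whose window above holds the full CRE, went from 43.9 and 44.5 TPM to 96.3 and 96.4 TPM (1.11, SE 0.04). Mrps23 and Mrpl20 were at 1.01 and 1.00.

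In WT 2 genes were called higher at 16 h than at 8 h of FSK (background 14%) and 0 lower. They were Mrps23, from 51.9 and 47.9 TPM to 85.7 and 86.4 TPM (0.78, SE 0.05), and Mrpl55, from 53.6 and 53.6 TPM to 88.4 and 86.0 TPM (0.69, SE 0.04). Past the adjusted p alone 40 were higher (background 46.2%), with an MRP median of 0.15 against 0.11. The count of 2 was 5 without replicate 1 at 8 h and 4 without replicate 2 at 16 h. ERCC scaling gave 48 calls in Med14 S983A and 27 in WT, and centring 10 and 1.

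The genotypes' responses were compared directly, as the response in Med14 S983A less that in WT. At 16 h of FSK 2 MRP genes were called, both higher (background 17% in either direction), and 42 were higher past the adjusted p alone (background 35.9%) and 2 lower. The MRP median was 0.23 against 0.08 for all genes, 0.08 with ERCC scaling, where 8 were higher past the adjusted p alone, and 0.14 after centring. The count of 2 was 4 without replicate 1 of WT at 16 h of FSK, of Med14 S983A CON or of Med14 S983A at 16 h of FSK.

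Mrpl50 and Mrps34 have no bacterial counterpart. Mrpl50 was 35.3 and 41.1 TPM in WT CON and 28.1 and 27.8 TPM after 16 h of FSK, and 36.9 and 30.7 TPM and then 42.7 and 42.5 TPM in Med14 S983A, a difference of responses of 0.77 (SE 0.09, adjusted p = 1.5e-07). Mrps34 was 125 and 129 TPM and then 101 and 104 TPM in WT, and 98.5 and 116 TPM and then 143 and 143 TPM in Med14 S983A, a difference of responses of 0.72 (SE 0.11, adjusted p = 8.73e-06). With ERCC scaling the value of Mrps34 was 0.57, inside the fold minimum. On the TPM scale both genes were lower than CON in WT (-0.43 and -0.30) and higher in Med14 S983A (0.33 and 0.42), but with ERCC scaling the WT values were -0.05 and 0.10, neither past the adjusted p, and those of Med14 S983A 0.57 and 0.66. Mrps30 was next at 0.58 (SE 0.06). The lowest were Mrpl58 at -0.25, Mrpl14 at -0.20 and Mrps36 at -0.09, and RefSeq lists Mrps36 as Kgd4, a subunit of the oxoglutarate dehydrogenase complex.

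At 8 h of FSK 1 gene was called in the difference of responses (background 13.9% in either direction). Mrpl23 was 267 and 268 TPM and then 198 and 193 TPM in WT, and 245 and 265 TPM and then 126 and 120 TPM in Med14 S983A, a difference of responses of -0.59 (SE 0.06, adjusted p = 3.38e-08). The treated libraries were lower than CON in both genotypes. The call was lost without replicate 1 of WT at 8 h of FSK (-0.57), without replicate 2 of Med14 S983A CON (-0.53) and without the second Med14 S983A library at 8 h of FSK (-0.56), and the count was 2 without replicate 1 of either CON group.

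For Ex-4, 0 MRP genes were called in the difference of responses at 8 h (background 2.77%) and 0 at 16 h (background 7.24%). At an unadjusted p under 0.05 limma gave 9 and 28 members, edgeR called 0 at both times, and DESeq2 with ERCC size factors called 0 and 5. After ERCC scaling limma called 4 lower and 0 higher at 16 h. At 16 h 21 were higher past the adjusted p alone (background 29.1%) and the MRP median was 0.11, but -0.33 with ERCC scaling and -0.02 after centring. Mrpl50 at 0.57 (SE 0.09), Mrps34 at 0.47 and Mrpl47 at 0.41 were highest, and Mrpl14 at -0.34, Mrps36 at -0.27 and Mrpl58 at -0.23 lowest. The count at 16 h was 1 without replicate 1 of WT CON, of WT at 16 h of Ex-4 or of Med14 S983A at 16 h of Ex-4, and when either untreated Med14 S983A library was dropped.

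Ex-4 and FSK were also compared with each other in WT. At 8 h 8 MRP genes were higher with Ex-4 and 0 lower (background 28.1% in either direction). They were Mrpl34 at 0.92 (SE 0.06), Mrps23 at 0.77, Mrpl1 at 0.73, Mrps33 at 0.71, Mrpl2 at 0.68, Mrpl55 at 0.64, Mrpl52 at 0.60 and Mrpl42 at 0.60. The last 2 calls were lost without replicate 2 of either group (0.55 and 0.50 without that of Ex-4, 0.54 and 0.57 without that of FSK). The count was 15 with ERCC scaling and 2, 1 in each direction, after centring. At 16 h 2 were called (background 18.7%). Mrpl47 was lower with Ex-4, at 30.1 and 28.6 TPM against 50.8 and 50.6 TPM (-0.77, SE 0.05), and Mrps33 higher, at 133 and 128 TPM against 88.5 and 78.7 TPM (0.64, SE 0.05), a call lost without replicate 2 of WT at 16 h of FSK (0.55).

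Without treatment 3 MRP genes were higher (background 8.29%) and 3 lower (background 11.1%) in Med14 S983A than in WT. The MRP median was -0.04, but 0.16 with ERCC scaling and 0.05 after centring. The lower genes were of the small subunit. Mrps16 was 94.2 and 92.6 TPM in WT and 32.9 and 37.5 TPM in Med14 S983A, a difference of -1.39 (SE 0.06, adjusted p = 5.02e-16). Mrps35 was 22.9 and 22.9 TPM and 12.6 and 12.2 TPM (-0.84, SE 0.07). Mrps17 was 95.0 and 94.7 TPM and 63.3 and 58.9 TPM (-0.63, SE 0.05). The call of Mrps17 was lost with ERCC scaling (-0.42), after centring (-0.54) and when replicate 2 of untreated Med14 S983A was left out (-0.58).

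The higher genes were of the large subunit. Mrpl20 was 93.8 and 97.2 TPM in WT and 182 and 175 TPM in Med14 S983A, a difference of 0.90 (SE 0.05, adjusted p = 5.83e-14). Mrpl44, which is related to ribonuclease III, was 31.5 and 31.9 TPM and 59.3 and 59.5 TPM (0.88, SE 0.05). Mrpl37 was 125 and 123 TPM and 189 and 196 TPM (0.63, SE 0.04). None of the 6 genes overlapped between the genotypes, but neither did members with small differences, such as Mrpl49 at -0.04 and Mrpl4 at 0.05.

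For each member the median genotype difference of up to 25 tested genes on each side in rn6 was taken, with the window and a limit of 0.3 chosen with values known. In 8 members this median exceeded 0.3 in size, of which 6 were called and 8 had the sign of their neighbours. The other 60 included none of the 6 called genes and ran from -0.41 to 0.32. How often other tested genes lie in such regions was not counted. Around Mrps16 (chr15:4351292-4353694) the median was -0.87, with 40 of 43 genes below 0. Around Mrps35 (chr4:181434812-181465318) the median was -1, with 29 of 32 genes below 0. Around Mrps17 (chr12:30570386-30573563) the median was -0.67, with 49 of 50 genes below 0. The neighbours of the lower genes were thus mostly lower as well, and those of the higher genes mostly higher. Around Mrpl37 (chr5:126656330-126666830) the median was 0.44, with 47 of 50 genes above 0. Around Mrpl44 (chr9:85542763-85547814) the median was 0.85, with 48 of 50 genes above 0. Around Mrpl20 (chr5:173248245-173252775) the median was 0.84, with 37 of 40 genes above 0. The genotype, the clone and the genome region cannot be told apart in this design.

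**Figure D5:**
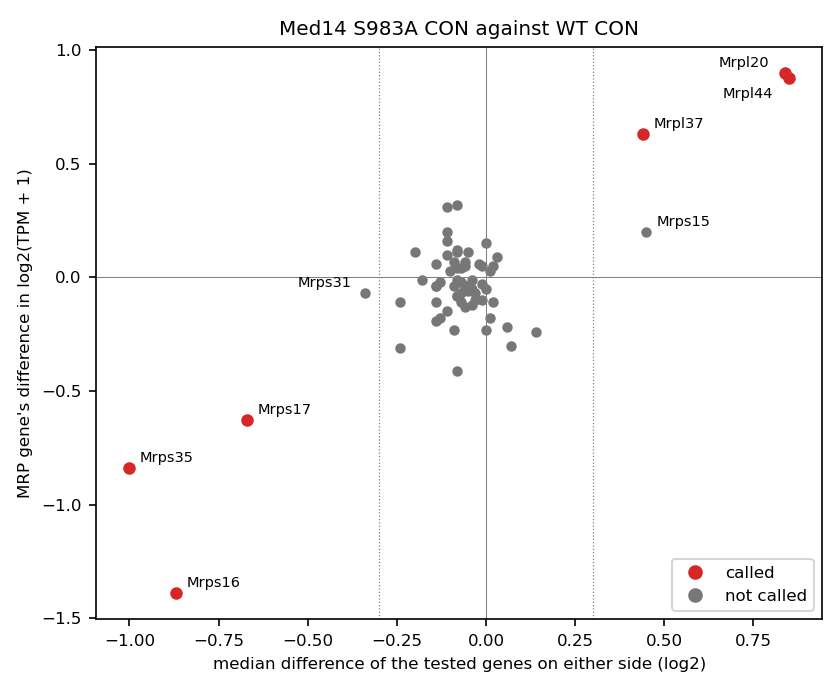
Genotype difference at CON of each MRP gene (vertical axis, log2(TPM + 1), Med14 S983A less WT) against the median difference of up to 25 tested genes on each side (horizontal axis), with the called genes marked. The 6 called genes, from Mrps16 at -1.39 to Mrpl20 at 0.90, all have a neighbour median over 0.3 in size.

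Of the 68 members 17 had a gene on the opposite strand starting within 1000 bases of their start. At 8 h of FSK in WT, Ndufb5, a subunit of complex I beside Mrpl47, had a difference of 0.23 where Mrpl47 had 0.76. Klc4, a kinesin light chain beside Mrpl2, had -1.87 where Mrpl2 had -0.96. Sars2, the mitochondrial seryl-tRNA synthetase beside Mrps12, had -0.73 where Mrps12 had -0.68, and Twnk, the mitochondrial DNA helicase beside Mrpl43, had -0.98 where Mrpl43 had -0.05. These pairs were chosen after their values were seen. Mrpl13, Mrpl47, Mrpl57, Mrps18a, Mrps2 and Mrps7 overlap a gene on the other strand, and reads were counted by strand.

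Proteins of the same ribosome that carry other names formed a list of 5. At 8 h of FSK 1 was called lower in WT (background 34.8%) and 0 in Med14 S983A (background 34.5%). It was Ptcd3, a small-subunit protein, which fell from 74.9 and 69.9 TPM to 34.9 and 32.8 TPM (-1.08, SE 0.05), and its difference of responses at 16 h of FSK was 1.22 (SE 0.07, adjusted p = 4.41e-13). At CON, Chchd1 was at -1.12, Ptcd3 at -0.61 and Aurkaip1 at 0.89 in Med14 S983A against WT, all called (background 11.1% lower and 8.29% higher). The neighbours of these genes in the genome were not examined.

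Genes that work with the mitochondrial ribosome were counted at 8 h of FSK, where 34.8% of all genes were called lower in WT and 34.5% in Med14 S983A, with medians of -0.34 and -0.28. Of 15 mitochondrial aminoacyl-tRNA synthetases, which charge the tRNAs, 13 were called lower in WT and 13 in Med14 S983A, with medians of -0.74 and -0.91. Tars2, for threonine, fell from 57.7 and 54.8 TPM to 22.6 and 21.7 TPM in WT (-1.31, SE 0.04). Of 10 translation factors 5 and 5 were called lower, with medians of -0.51 and -0.47. Of 21 ribosome assembly factors it was 6 and 8, with medians of -0.38 and -0.44, among them the GTPase Gtpbp10 at -1.28 and -1.28. The counts of assembly factors were thus near those of all genes. None of these 3 lists had a gene called higher at 8 h. Values for these lists, the list of 5 above and the lists below are on the TPM scale alone. Centring moved the median of all genes at 8 h of FSK to 0.05 in WT and 0.06 in Med14 S983A. Calls of the lists after centring or ERCC scaling are not given.

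Of 16 genes of mitochondrial transcription and RNA processing 5 were called lower at 8 h of FSK in WT (31.2%, near the background of 34.8%). In Med14 S983A it was 3 (18.8%, background 34.5%). Tfam, which packages mitochondrial DNA and starts its transcription, fell in WT from 162 and 162 TPM to 91.2 and 95.4 TPM (-0.79, SE 0.04), and its difference of responses at 16 h was 0.62 (SE 0.06). In that difference of responses 3 of these genes, 3 assembly factors, 1 translation factor and 1 synthetase were called higher (background 10.6%) and 0 lower (background 6.4%).

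Of 10 nuclear regulators of mitochondrial genes 2 were called higher (background 8.77%) and 1 lower (background 34.8%) in WT at 8 h of FSK. In Med14 S983A 2 were called higher (background 11.6%) and 0 lower (background 34.5%). Ppargc1a, which encodes PGC-1 alpha, rose from 3.29 and 2.46 TPM to 37.3 and 35.1 TPM in WT (3.27, SE 0.17) and by 3.19 in Med14 S983A. Esrra, a nuclear receptor that works with it, rose by 1.13 and 1.5. Myc, a growth regulator, fell in WT from 69.4 and 70.5 TPM to 12.9 and 13.7 TPM (-2.31, SE 0.05). In Med14 S983A Myc was 55.5 and 56.5 TPM in CON, 76.9 and 75.2 TPM at 8 h and 146 and 148 TPM at 16 h of FSK, and its difference of responses at 16 h was 2.27 (SE 0.07, adjusted p = 1.39e-18). The part of these regulators in the MRP results was not tested.

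The MRP genes were set beside 75 cytosolic ribosomal protein genes and 72 nuclear genes of the respiratory chain and ATP synthase. At 8 h of FSK in WT 1 cytosolic ribosomal protein gene and 0 respiratory genes were called lower (background 34.8%). Called higher were 0 and 2 (background 8.77%). The medians were -0.18 and -0.01 against -0.31 for MRP genes. In Med14 S983A 7 and 7 were called lower (background 34.5%) and 0 and 4 higher (background 11.6%). There the medians were -0.33 and -0.02 against -0.34. For the difference of responses at 16 h of FSK the medians were 0.31, -0.03 and 0.23. Differences between the lists were not tested.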

How the data were processed

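Libraries of INS-1 RNA (14 groups of 2) were grouped by their GEO labels. The authors aligned reads with STAR (2.5.3a) to rn6 plus the ERCC sequences and deposited TPM per RefSeq transcript, made strand-specifically with HOMER (4.11.1), which divides by transcript length, so levels depend on the annotated exons and on what else is abundant. The authors also deposited read counts of the 92 ERCC spike-ins, and ran DESeq2 (1.24.0) with ERCC size factors. Spike-ins had been put into equal masses of total RNA.

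From these files, 1 transcript per symbol was kept and genes averaging 1 TPM or more were tested with limma (3.58.1, R 4.3.3) on log2(TPM + 1), with 14 group means, 14 residual degrees of freedom and Benjamini-Hochberg adjustment over 10275 genes, in two-sided tests. Whole fragments were recovered from the TPM steps (137444 values checked, 100% whole within 0.05 reads beyond rounding) for edgeR (4.0.16) and DESeq2 (1.42.0) as alternatives. The other alternatives were a pseudocount of 0.1, no filter, a minimum mean of 5 TPM, ERCC scaling, median-centring, only the libraries of the contrast, a replicate block, no fold minimum and leaving out each library. Replicates differed by more than counting noise (chi-square per degree of freedom 2.39 to 9.15). The scripts were tested on simulated data.

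The members and the gene lists, motifs and window sizes were chosen with earlier results of these data known. In each comparison all called members were named where 8 or fewer were called, otherwise the 4 largest rises and falls, with the 3 highest and lowest members in 6 comparisons, the 5 most and least abundant and members of known role. Mrpl11 was not analysed here. The comparisons of 16 with 8 h of FSK were added after seeing the data. Promoters are RefSeq sequences of GRCr8, and gene positions are those of the deposited table in rn6.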

Additional observations from a re-analysis of the deposited data

Results flagged for a closer look

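The difference between the genotypes in the response to FSK was tested directly as an interaction with limma, and 3 MRP genes were called. The shares of all genes called were 13.9% at 8 h and 17% at 16 h, against 1.47% and 2.94% of MRP genes. Mrpl23 at 8 h of FSK had a difference of responses of -0.59, lower in Med14 S983A. Mrpl50 at 16 h of FSK had 0.77 and Mrps34 at 16 h had 0.72, both higher in Med14 S983A. The call of Mrpl23 was lost in some fits that left out a library. With ERCC scaling the value of Mrps34 was inside the fold minimum. Groups of 2 libraries are too small for a check of outlying samples.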

How the results depend on the processing

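The counts of MRP genes called kept within 1.5 times the main count without the filter, with a mean of at least 5 TPM and with only the libraries of each contrast. Without the fold minimum the count was 11 for WT at 1 h of Ex-4, 32 for WT at 1 h of FSK, 29 for WT at 8 h of Ex-4, 55 for WT at 8 h of FSK, 36 for WT at 16 h of Ex-4, 49 for WT at 16 h of FSK, 47 for 16 against 8 h of FSK in WT, 19 for Med14 S983A at 1 h of Ex-4, 51 for Med14 S983A at 1 h of FSK, 27 for Med14 S983A at 8 h of Ex-4, 53 for Med14 S983A at 8 h of FSK, 35 for Med14 S983A at 16 h of Ex-4, 53 for Med14 S983A at 16 h of FSK, 62 for 16 against 8 h of FSK in Med14 S983A, 31 for genotype at CON, 55 for Ex-4 against FSK in WT at 8 h, 3 for the difference of responses to 8 h of Ex-4, 28 for the difference of responses to 8 h of FSK, 40 for Ex-4 against FSK in WT at 16 h, 24 for the difference of responses to 16 h of Ex-4 and 44 for the difference of responses to 16 h of FSK. After centring on the median gene the count was 5 for WT at 8 h of FSK, 1 for 16 against 8 h of FSK in WT, 1 for Med14 S983A at 1 h of FSK, 12 for Med14 S983A at 8 h of FSK, 10 for 16 against 8 h of FSK in Med14 S983A, 2 for Ex-4 against FSK in WT at 8 h and 1 for Ex-4 against FSK in WT at 16 h. With ERCC scaling the count was 1 for WT at 16 h of Ex-4, 8 for WT at 16 h of FSK, 27 for 16 against 8 h of FSK in WT, 11 for Med14 S983A at 1 h of FSK, 13 for Med14 S983A at 16 h of FSK, 48 for 16 against 8 h of FSK in Med14 S983A, 15 for Ex-4 against FSK in WT at 8 h, 2 for the difference of responses to 8 h of FSK, 1 for Ex-4 against FSK in WT at 16 h, 4 for the difference of responses to 16 h of Ex-4 and 1 for the difference of responses to 16 h of FSK. With edgeR the count was 6 for WT at 8 h of FSK, 1 for 16 against 8 h of FSK in WT, 1 for Med14 S983A at 1 h of FSK, 12 for Med14 S983A at 8 h of FSK, 11 for 16 against 8 h of FSK in Med14 S983A and 3 for Ex-4 against FSK in WT at 8 h. With DESeq2 and ERCC size factors the count was 1 for WT at 16 h of Ex-4, 8 for WT at 16 h of FSK, 27 for 16 against 8 h of FSK in WT, 12 for Med14 S983A at 1 h of FSK, 15 for Med14 S983A at 16 h of FSK, 49 for 16 against 8 h of FSK in Med14 S983A, 16 for Ex-4 against FSK in WT at 8 h, 2 for the difference of responses to 8 h of FSK, 1 for Ex-4 against FSK in WT at 16 h, 5 for the difference of responses to 16 h of Ex-4 and 1 for the difference of responses to 16 h of FSK. With a pseudocount of 0.1 the count was 1 for the difference of responses to 16 h of Ex-4. Leaving out each library in turn gave counts of 2 to 5 for 16 against 8 h of FSK in WT, 1 to 4 for Med14 S983A at 1 h of FSK, 0 to 2 for the difference of responses to 8 h of FSK, 1 to 3 for Ex-4 against FSK in WT at 16 h, 0 to 1 for the difference of responses to 16 h of Ex-4 and 2 to 4 for the difference of responses to 16 h of FSK. The causes of these shifts were not tested, except that dropping the fold minimum admits smaller differences by construction. The differences of Mrpl50 in WT at 16 h of Ex-4 (0.00) and of Mrpl47 in the difference of responses to 16 h of Ex-4 (-0.02) lost or turned their sign both with ERCC scaling and with DESeq2. Replicate numbers did not pair the libraries: 17 of 91 pairs of groups had a correlation of deviations over 0.1 (range -0.28 to 0.283), and 16 of 28 libraries were most like one of their own number. With the replicate number as a block the counts did not move, for example 13 for WT and 19 for Med14 S983A at 8 h of FSK. With 2 libraries per group, the spread was pooled over all groups, and a lone library left by an omission was assumed to vary like the others.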
